A study of Mus musculus with 9 samples.

Results

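The NF-kB system was examined through 10 genes: the inhibitors Nfkbia, Nfkbib and Nfkbie, the subunits Nfkb1, Nfkb2, Rel, Rela and Relb, and the kinase genes Chuk and Ikbkb. They were found by gene symbol among the 30153 genes counted in 9 RNA-seq libraries, and all 10 were present. The set was chosen by the level of Nfkbia in 1 contrast, GFP High against GFP Low oocytes, in these same libraries. The authors' deposited table gives Nfkbia a log2 difference of 1.07 there. That difference is therefore given below as a description, without a test. The other 9 genes were included for their family names, and the question was whether they follow Nfkbia.

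The libraries came from pools of metaphase II (MII) oocytes, which are ovulated eggs held in the second meiotic division. All females were 4 weeks old, of mixed genetic background, and carried Sycp3CreERT2/+; Rosa26nT-nG/+, so no group lacks the Cre allele or the reporter. CreERT2 is a Cre recombinase that acts after tamoxifen, here under the control of Sycp3, a meiotic gene, and nT-nG is a reporter that switches from red to green nuclear fluorescence once Cre has acted. Superovulation used 5 IU PMSG and, 48 h later, 5 IU hCG, and eggs were taken 13 h after hCG, stripped of cumulus cells and picked by hand by their fluorescence as GFP High, as GFP Low or as RFP. Each group had 3 libraries, made from 15 to 16 oocytes per pool for GFP High, 49 to 57 for GFP Low and 87 to 100 for RFP. Pool size and group therefore cannot be told apart. Nothing in the labels says whether pools of a group shared females, so the spread between libraries may be partly technical.

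NF-kB is a family of transcription factors that act as dimers of Rela, Rel, Relb and the processed products of Nfkb1 (p50) and Nfkb2 (p52). In resting cells, IkB proteins encoded by Nfkbia (IkB-alpha), Nfkbib (IkB-beta) and Nfkbie (IkB-epsilon) hold the dimers in the cytoplasm. The IkB kinase, whose catalytic subunits are the products of Chuk (IKK-alpha) and Ikbkb (IKK-beta), phosphorylates IkB and marks it for ubiquitination and destruction, which frees the dimer to enter the nucleus. Nfkbia is itself a well known NF-kB target and so closes a negative feedback loop. MII oocytes make almost no new RNA, so their mRNA is largely a store laid down during growth.

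The promoter regions of the inhibitors are shown because Nfkbia, unlike Nfkbib, is the family's standard example of an inhibitor gene under NF-kB control. Each line holds the 250 bases before the RefSeq transcription start on GRCm38.p6, written 5′ to 3′ on the strand of the gene. Capitals mark matches to the NF-kB consensus, searched on both strands. The stretches are chr12:55492648-55492897 (minus strand) for Nfkbia, chr7:28766645-28766894 (minus strand) for Nfkbib and chr17:45555450-45555699 (plus strand) for Nfkbie.
Nfkbia: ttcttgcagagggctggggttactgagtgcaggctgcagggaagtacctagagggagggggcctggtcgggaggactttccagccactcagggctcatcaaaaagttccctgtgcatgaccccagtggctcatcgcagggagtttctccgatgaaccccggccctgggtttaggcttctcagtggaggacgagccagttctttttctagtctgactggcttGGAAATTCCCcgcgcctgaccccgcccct
Nfkbib: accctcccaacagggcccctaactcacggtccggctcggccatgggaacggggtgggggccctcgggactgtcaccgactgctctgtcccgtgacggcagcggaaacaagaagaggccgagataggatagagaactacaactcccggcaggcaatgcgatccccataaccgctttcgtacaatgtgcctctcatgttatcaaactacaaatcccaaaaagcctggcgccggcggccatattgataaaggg
Nfkbie: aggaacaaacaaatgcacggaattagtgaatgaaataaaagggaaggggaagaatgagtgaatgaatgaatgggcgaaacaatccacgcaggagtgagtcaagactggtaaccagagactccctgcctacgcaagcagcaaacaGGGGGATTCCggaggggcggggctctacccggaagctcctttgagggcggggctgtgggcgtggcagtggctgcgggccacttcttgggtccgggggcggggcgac
The Nfkbia stretch held 1 match, at positions -29 to -20 counted from the start. The Nfkbie stretch also held 1, at positions -106 to -97, and Nfkbib held 0. The Nfkbib stretch lies inside the gene as deposited (chr7:28758251-28767512), so its RefSeq start is downstream of the deposited 5′ end. The bases before that 5′ end were not searched, and the 0 does not cover them. The Nfkbia and Nfkbie stretches lie just outside their genes as deposited. The search was run on windows of 250 bases before and 50 after each start, and a window was found for 7 of the 10 genes (all but Nfkb1, Relb and Ikbkb). Of these 7, the windows of Nfkbia, Nfkbie, Rel and Nfkb2 held a match and those of Nfkbib, Rela and Chuk held none, while 8.46% of all 32817 mouse windows held at least 1. Nfkb2 has 3 windows, which partly overlap, and the others have 1 each, so a count of genes is not the same measure as a share of windows. A match describes letters only, and the libraries measure no binding.

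The libraries held 19381677 to 27746256 counts, and levels are given as counts per 1000000 counts of the scaled library (CPM). In the smallest library 1 CPM stood for about 19.4 counts. The reporter followed the labels: eGFP was at 869 to 1081 counts in the GFP High libraries, 282 to 662 in those of GFP Low and 0 to 16 in those of RFP. All 15 oocyte markers were above 1 CPM, with summed levels of 13480 to 15025 CPM in the GFP High libraries, 12721 to 13509 in those of GFP Low and 12872 to 13337 in those of RFP. Of 22 cumulus and granulosa cell markers, 11 reached 1 CPM, and their sum was 119.7 to 225.1, 148.7 to 170.0 and 139.4 to 217.8 CPM in the same order. On average most of that sum was Nr5a2 (121.0 CPM over the 9 libraries). By group, Nr5a2 was at 125.9 ± 29.2, 119.4 ± 13.2 and 117.6 ± 11.3 CPM in the same order (SD, n = 3 each). The highest sums were those of GFP High 1 and RFP 2, so the libraries of a group were not alike. Vcan was at 3.81 ± 5.80, 4.66 ± 6.23 and 7.54 ± 7.35 CPM, an SD near or above the mean in each group. Amhr2 and Areg had at most 3 counts in any library. Of 11 immune cell markers, 9 were found and 1 (Laptm5) reached 1 CPM, with sums of 1.26 to 4.64 CPM over all libraries.

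Nfkbia, which encodes IkB-alpha (chr12:55489410-55492647, minus strand), had its highest values in GFP High oocytes. Its level was 29.7, 32.8 and 28.7 CPM in the 3 GFP High libraries, from 814, 807 and 639 counts. It was 14.7, 14.4 and 14.7 CPM in GFP Low, from 286, 376 and 407 counts. It was 19.4, 21.0 and 13.0 CPM in RFP, from 515, 479 and 350 counts. The GFP High libraries lay above all other libraries, whereas RFP and GFP Low overlapped, because RFP 3 was below every GFP Low library. The group means were 30.4 ± 2.14, 14.6 ± 0.206 and 17.8 ± 4.26 CPM (SD, n = 3 each) for GFP High, GFP Low and RFP. In pooled oocytes, more oocytes with the transcript and more transcript per oocyte cannot be told apart.

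As a description of the contrast that chose it, Nfkbia in GFP High oocytes stood at 2.09 times its GFP Low level (log2 1.06), and its spread there is the group SDs above. Against RFP, whose libraries are new to the choice but are set against the same GFP High libraries, the value was 0.78 on the log2 scale (SE 0.22, 1.71-fold). Nfkbia was not called by edgeR in that comparison (adjusted p = 0.997 over all genes). In the contrast that chose it, edgeR did not call it, while DESeq2 and edgeR without a filter on low counts did. Neither outcome is read as a test, because those values chose the gene. GFP Low minus RFP was -0.29 on the log2 scale (SE 0.19, interval -0.69 to 0.12), and these neighbouring levels do not differ beyond their spread. Against RFP, the GFP Low value was -0.47 without RFP 3 and -0.15 without RFP 2, and the GFP High value 0.59 and 0.91. The summed cumulus markers were at 225.1, 119.7 and 137.4 CPM in GFP High 1, 2 and 3. They were at 170.0, 148.7 and 163.1 CPM in GFP Low 1, 2 and 3. In RFP 1, 2 and 3 they were at 147.4, 217.8 and 139.4 CPM. Within RFP, the highest marker sum and the highest Nfkbia level fell in the same library, RFP 2. Within GFP High, the lowest marker sum and the highest Nfkbia level fell in the same library, GFP High 2. Within GFP Low, Nfkbia was nearly level, at 14.4 to 14.7 CPM. The part of these markers in the Nfkbia level was not tested.

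**Figure D1:**
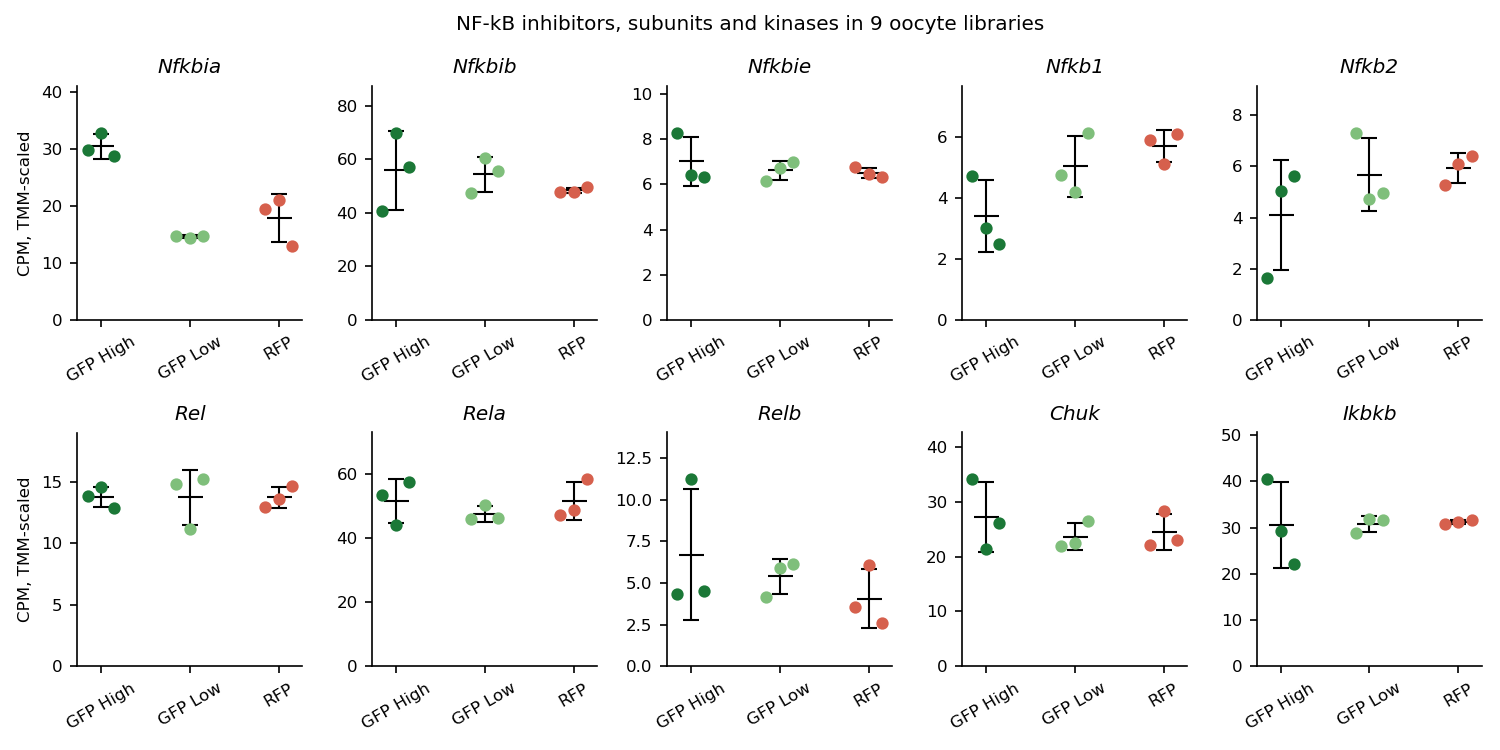
Level of each of the 10 genes in CPM (vertical axes, linear, each from 0) by group; points are the 3 libraries of a group and bars are the mean ± SD. Nfkbia is the gene whose GFP High libraries all lie above every other library, at 28.7 to 32.8 CPM against 13.0 to 21.0.

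The second inhibitor gene, Nfkbib (IkB-beta, chr7:28758251-28767512, minus strand), showed no such separation. It was at 40.7, 69.9 and 56.9 CPM in the GFP High libraries, 47.4, 60.4 and 55.4 in those of GFP Low and 47.9, 47.9 and 49.5 in those of RFP. The GFP High libraries spanned both other groups. Nfkbib overlaps Sirt2 on the opposite strand, which averaged 11.8 CPM, and since strand use in counting is not given in the sources used here, reads of this pair may not be fully separated. Nfkbie (IkB-epsilon, chr17:45555703-45563169, plus strand) was at 8.29, 6.42 and 6.34 CPM in the GFP High libraries, 6.13, 6.72 and 6.99 in those of GFP Low and 6.76, 6.45 and 6.31 in those of RFP. Its 3 groups overlapped, with 1 GFP High library above the rest.

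Nfkbia took a larger share of the inhibitor mRNA in GFP High than elsewhere. On the authors' FPKM scale, which divides by gene length and so allows genes to be compared, Nfkbia made up 46.2, 37.3 and 38.7% of the summed level of the 3 inhibitors in GFP High. Its share was 27.7, 22.9 and 24.6% in GFP Low, whereas RFP had 33.2, 35.1 and 24.5%, so GFP High did not overlap either group. Nfkbib was the larger part in every library, with 54.2 ± 6.38% in the GFP High libraries, 68.9 ± 2.64% in those of GFP Low and 63.1 ± 5.41% in those of RFP (SD, n = 3 each). The summed inhibitor level was 46.8 ± 7.53, 35.9 ± 2.95 and 35.0 ± 2.43 FPKM in that order. These shares rest on the Nfkbia values that chose the set and are given without a test.

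**Figure D2:**
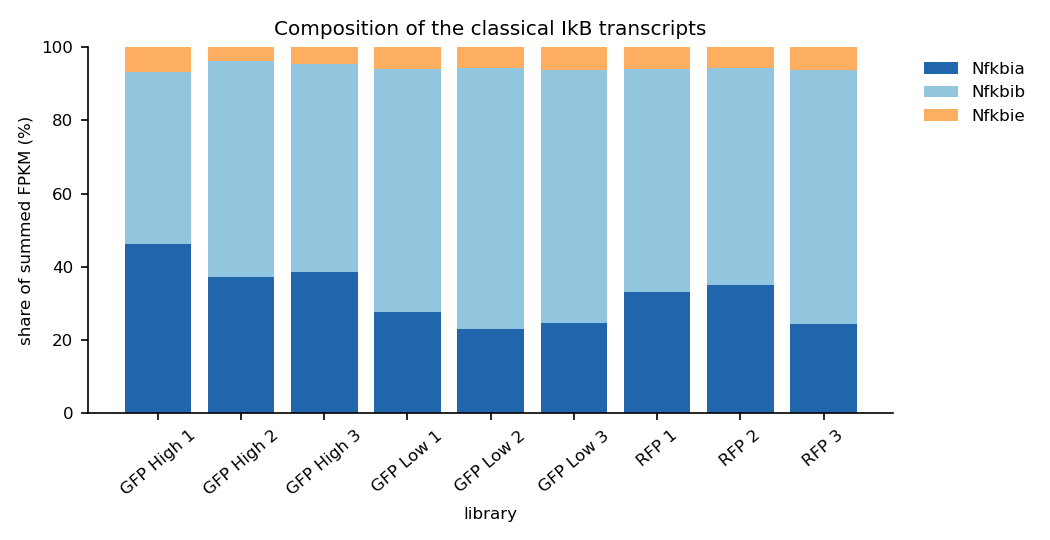
Share of the summed FPKM of Nfkbia, Nfkbib and Nfkbie (vertical axis, percent) that each inhibitor took in each of the 9 libraries (horizontal axis). Nfkbia took 37.3 to 46.2% in the GFP High libraries and 22.9 to 35.1% in the other libraries.

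Rela, which encodes p65 with its strong activation domain (chr19:5637483-5648130, plus strand), was the most abundant subunit and showed overlapping groups. It was at 53.4, 44.1 and 57.6 CPM in the GFP High libraries, 46.1, 50.4 and 46.2 in those of GFP Low and 47.4, 48.9 and 58.5 in those of RFP. GFP High minus RFP was 0.0076 on the log2 scale (SE 0.16, 95% interval -0.34 to 0.36). On the FPKM scale Rela made up 71.0 to 83.6% of the summed subunit level over the 9 libraries. The FPKM ratio of Nfkbia to Rela was 1.01 ± 0.217 in the GFP High libraries, 0.518 ± 0.0329 in those of GFP Low and 0.597 ± 0.193 in those of RFP (SD, n = 3 each). This ratio rests on the Nfkbia values that chose the set and is given without a test.

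Rel (c-Rel, chr11:23736847-23770970, minus strand), the other classical subunit with an activation domain, was the flattest of the subunits in mean. Its values were 13.9, 14.6 and 12.9 CPM in the GFP High libraries, 14.8, 11.1 and 15.2 in those of GFP Low and 12.9, 13.6 and 14.7 in those of RFP. The means were 13.8, 13.7 and 13.7 CPM, and the groups overlapped fully.

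Relb (chr7:19606217-19629438, minus strand), the partner of p52 in the alternative pathway, had the widest relative spread of the 10 genes in GFP High and RFP. It was at 4.31, 11.2 and 4.54 CPM in the GFP High libraries, 4.18, 5.88 and 6.13 in those of GFP Low and 3.55, 6.05 and 2.60 in those of RFP. A single library, GFP High 2, carried the highest value. GFP High minus RFP was 0.72 on the log2 scale (SE 0.51, interval -0.42 to 1.87), and ran from 0.12 without GFP High 2 to 1.12 without RFP 2. Against GFP Low it was 0.31, and ran from -0.29 without GFP High 2 to 0.54 without GFP High 1.

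The precursor subunit genes had low levels. Nfkb1 (p105 and p50, chr3:135584655-135691547, minus strand) was at 4.71, 3.01 and 2.47 CPM in the GFP High libraries, 4.74, 4.20 and 6.13 in those of GFP Low and 5.89, 5.09 and 6.08 in those of RFP. All GFP High libraries lay below all RFP libraries, and GFP High overlapped GFP Low. The GFP High minus RFP value was -0.74 on the log2 scale (SE 0.42, interval -1.67 to 0.20), and it did not pass the edgeR quasi-likelihood test (Benjamini-Hochberg adjusted p = 0.997 over all genes). Nfkb2 (p100 and p52, chr19:46304737-46312090, plus strand) was at 1.64, 5.04 and 5.62 CPM in the GFP High libraries, 7.32, 4.73 and 4.97 in those of GFP Low and 5.28, 6.10 and 6.42 in those of RFP. Its lowest value was GFP High 1, with 45 counts. GFP High minus RFP was -0.53 on the log2 scale (SE 0.49), and ran from -0.16 without that library to -0.83 without GFP High 3. GFP High minus GFP Low was -0.47, and ran from -0.09 to -0.77 when the same libraries were left out.

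Of the kinase genes, Chuk (IKK-alpha, chr19:44073335-44107480, minus strand) was at 34.1, 21.4 and 26.1 CPM in the GFP High libraries, 22.0, 22.5 and 26.6 in those of GFP Low and 22.1, 28.3 and 23.0 in those of RFP. Ikbkb (IKK-beta, chr8:22659212-22706589, minus strand) was at 40.5, 29.2 and 22.1 CPM in the GFP High libraries, 28.8, 31.8 and 31.5 in those of GFP Low and 30.7, 31.3 and 31.5 in those of RFP. Both kinases had their highest value in GFP High 1, and their groups overlapped. For Ikbkb, 1 GFP High library lay above and another below all 6 remaining libraries, while the means were 30.6, 30.7 and 31.2 CPM for GFP High, GFP Low and RFP.

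Whether the relatives followed Nfkbia was read from the fit across all genes. In GFP High against RFP, 0 of the 9 relatives passed an adjusted p of 0.05 (edgeR, adjusted p 0.997 to 0.999), where 0.0135% of the 14829 tested genes did. With 2 genes called in all and Nfkbia not among them, a count of 0 does not show that the relatives were unchanged. At an unadjusted p under 0.05 the count was also 0 of 9, against a background of 4.09%, and DESeq2 called 0 of 9 as well. Nfkb1 was the only relative whose libraries did not overlap, being lower in GFP High, where 6.98% of tested genes were lower without overlap. None was higher without overlap in GFP High, the direction of Nfkbia itself, where the background was 4.88%.

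In GFP Low against RFP, edgeR called 0 of 9 relatives (adjusted p 1.00 for each) with a background of 0.0197% of 15199 genes, and DESeq2 called 0 of 9. Unadjusted p was under 0.05 for 0 of 9, against 2.62% of genes, and the lowest was 0.170. No member was higher or lower without overlap, against backgrounds of 3.59% and 4.09%. For the contrast behind the choice, GFP High against GFP Low, the corresponding backgrounds over 14785 genes were 0% by adjusted p, 3.77% by unadjusted p, 4.71% higher without overlap and 6.84% lower without overlap. There, Nfkbia was the member higher without overlap and 0 members were lower, and nothing is read from that count.

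The 95% intervals give the sizes that the libraries allow. In each of the 3 comparisons the upper bound was below 1 on the log2 scale, a doubling, for 8 of the 9 relatives, and Relb was the exception each time. A doubling is near the Nfkbia value between the GFP groups only, since Nfkbia was at 0.78 and -0.29 against RFP. In GFP High against RFP, the intervals of Nfkbie and Relb held the Nfkbia value. In GFP Low against RFP, those of all relatives but Nfkbib and Ikbkb held it. Between the GFP groups the interval was -0.40 to 0.48 for Nfkbib, -0.64 to 0.82 for Nfkbie, -0.21 to 0.45 for Rela, -0.53 to 0.54 for Rel, -0.71 to 1.33 for Relb, -0.28 to 0.69 for Chuk and -0.50 to 0.50 for Ikbkb. The difference between Nfkbia and each relative was not tested, because the value of Nfkbia is the one that chose the set and can be too high for that reason. An interval that holds 0 does not show an equal level: for Nfkb1 and Nfkb2 it reached -1.59 and -1.61 in GFP High against GFP Low.

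**Figure D3:**
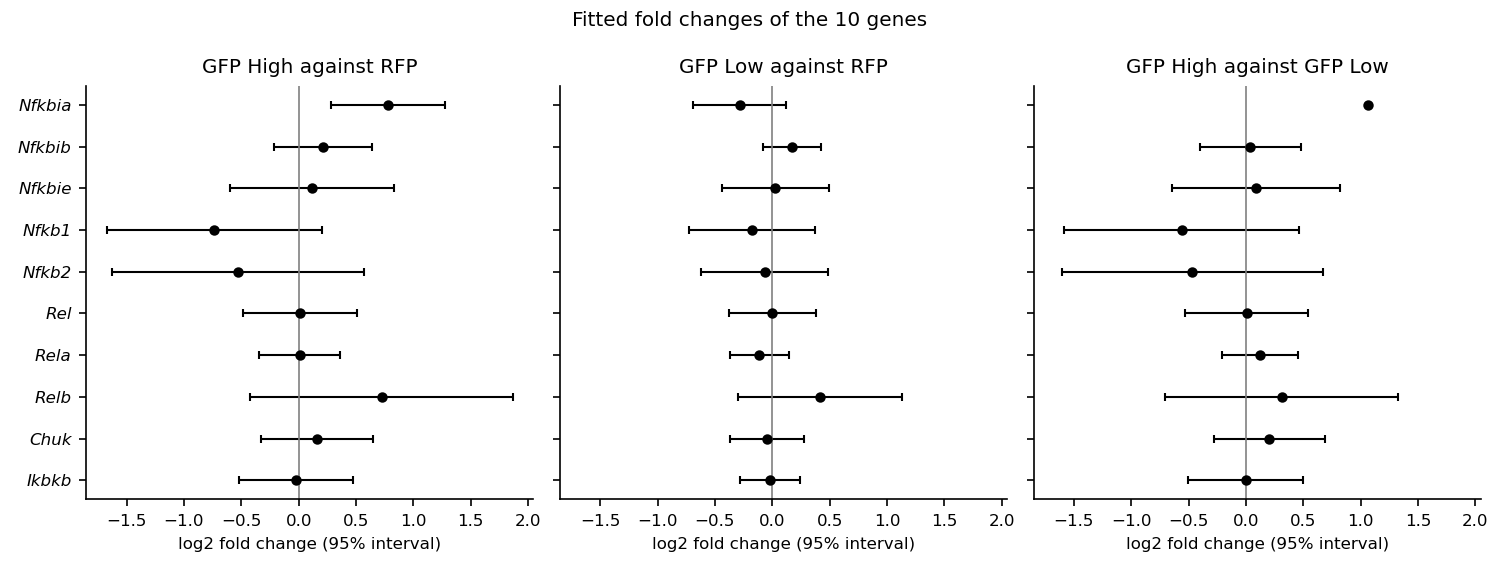
Log2 difference (horizontal axis) of the 10 genes (vertical axis) for the 3 pairs of groups, 1 panel per pair; points are edgeR estimates and lines their 95% intervals, left out for Nfkbia in the contrast that chose it. Nfkbia stands at 1.06 in GFP High against GFP Low and 0.78 in GFP High against RFP. In GFP Low against RFP it stands at -0.29, with an interval of -0.69 to 0.12. The intervals of the 9 relatives include 0 in all 3 panels. That of Relb also holds the Nfkbia value in all 3, and that of Nfkbie does in GFP High against RFP. The difference between Nfkbia and a relative was not tested.

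Most of the 10 genes varied more between GFP High libraries than between those of the other groups, and so did most of all tested genes. The coefficient of variation (SD over mean, CPM, n = 3) was highest in GFP High for 8 of the 10 genes, Rel (GFP Low) and Nfkbia (RFP) being the exceptions. Among all 14221 tested genes the coefficient was highest in GFP High for 68.0%, in GFP Low for 15.0% and in RFP for 17.0%. In GFP High the coefficients ran from 6.05% for Rel to 58.7% for Relb, with 52.4% for Nfkb2, 34.4% for Nfkb1 and 30.3% for Ikbkb. In RFP, Ikbkb and Nfkbib were at 1.40% and 1.99%. Nfkbia was at 7.02% in GFP High and 1.41% in GFP Low, where counting error alone gives 3.64% and 5.30%, and at 23.9% in RFP. For 1920 genes of like level the median was 23.0% in the GFP High libraries, 11.9% in those of GFP Low and 12.4% in those of RFP. A gene chosen by its GFP High to GFP Low difference is more likely to have a small spread in those groups, so nothing is read from the Nfkbia values.

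**Figure D4:**
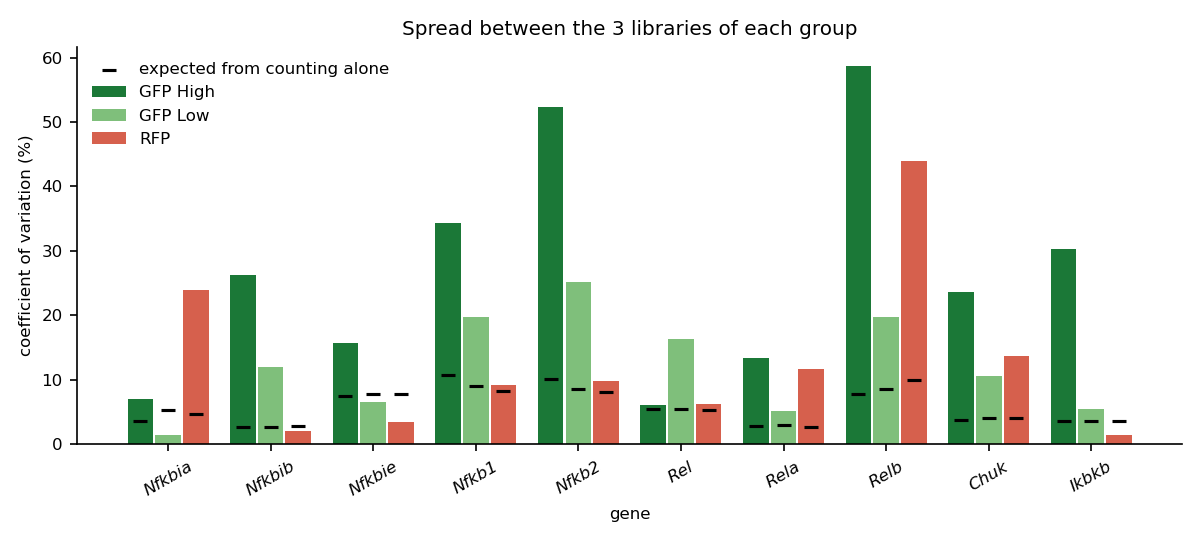
Coefficient of variation (vertical axis, percent) of each gene (horizontal axis) over the 3 libraries of each group (bars), with a dash at the value that counting error alone gives. The GFP High bar is the tallest for 8 of the 10 genes, up to 58.7% for Relb, and the Nfkbia bar in GFP Low (1.41%) is below its dash.

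Between genes, levels were compared per length, as the mean FPKM of the 9 libraries with the lowest and highest library. Nfkbib led with 24.1 FPKM (18.7 to 32.2), followed by Rela with 18.3 (16.2 to 21.1) and Nfkbia with 12.9 (7.88 to 20.4), and these neighbours overlap in range. Chuk had 4.89 FPKM (4.21 to 6.68) and Nfkbie 2.18 (1.99 to 2.71), each apart from its neighbours above. Rel (1.82), Ikbkb (1.60), Nfkb2 (1.58) and Relb (1.37) overlapped one another. Each also overlapped Nfkbie, with highest libraries at 2.01, 2.11, 2.20 and 2.89 in that order. Nfkb1 was lowest at 0.386 (0.204 to 0.502) and overlapped only Nfkb2, whose lowest library was at 0.497. The inhibitors summed to 1.96 ± 0.382 times the subunits in the GFP High libraries, 1.59 ± 0.113 times in those of GFP Low and 1.48 ± 0.214 times in those of RFP (SD, n = 3 each). The inhibitor sum holds the Nfkbia values that chose the set, so the ratio is given without a test.

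The authors' gene length joins all exons of a gene, and for Ikbkb it is 19078 bases against 3580 in the GENCODE principal transcript. Per principal transcript length, Ikbkb came to 8.61 and Chuk to 7.18 on the same scale, which turns the order of the kinases. Ikbkb then also stood above Nfkbie (2.76), and Relb (2.43) above Rel (1.84). The mean Chuk to Ikbkb ratio was 3.10 with the deposited length and 0.844 with the transcript length. The share of Nfkbia among inhibitors was little moved, at 39.6, 24.2 and 29.9% in GFP High, GFP Low and RFP. The share of Rela among subunits was 63.4 to 78.2% over the 9 libraries. Nfkb1 stayed lowest in mean, at 1.14, and its range (0.601 to 1.49) overlapped those of Nfkb2, Relb and Rel.

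The rest of the pathway was described with 126 genes from 8 lists, of which 118 were found and 78 to 81 tested in each comparison. edgeR called 0 of 81 in GFP High against RFP, 0 of 78 in GFP Low against RFP and 0 of 79 between the GFP groups, and DESeq2 also called 0 in each. Over all tested genes edgeR called 0.0135%, 0.0197% and 0% in that order, so its count of 0 says little about the pathway. Unadjusted p (edgeR) was under 0.05 for 6 of 81, 5 of 78 and 5 of 79, in that order, beside 4.09%, 2.62% and 3.77% of all tested genes. Each share was above that of all tested genes, and the excess was not tested. The median log2 difference was 0.02, -0.02 and 0.06, beside -0.0056, -0.0041 and -0.0048 over all tested genes.

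Upstream, few inducers and sensors reached 1 CPM. Of 12 ligands, 9 were found and 3 reached 1 CPM: Tnfsf13b (BAFF) at 12.2 CPM on average over the 9 libraries, Tnfsf11 (RANKL) at 4.53 and Tnfsf12 (TWEAK) at 1.03. Tnfsf12 was at 2.26 ± 3.18, 0.239 ± 0.144 and 0.581 ± 0.417 CPM (SD, n = 3 each) for GFP High, GFP Low and RFP, so its mean passed 1 CPM in GFP High alone, with an SD above that mean. Of 18 receptors, 15 were found and 6 reached 1 CPM, among them the interleukin-1 receptor genes Il1r1 (17.0 CPM) and Il1rap (12.3) and Tlr9 (5.51). Among the adaptors and ubiquitin ligases, Birc3, a ubiquitin ligase of the receptor complexes and also an NF-kB target, averaged 545.7 CPM. It was at 546.6 ± 40.2 CPM in the GFP High libraries, 582.2 ± 38.9 in those of GFP Low and 508.2 ± 32.1 in those of RFP (SD, n = 3 each). Other adaptors were Ube2n (98.9 CPM), which builds lysine-63 ubiquitin chains, and the kinase Ripk1 (53.3).

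Among the other kinase genes, Tab2, an adaptor of the TAK1 kinase, averaged 94.4 CPM, Csnk2a2 of casein kinase II 61.3 and Tbk1 47.3. All 6 genes listed for the destruction of IkB reached 1 CPM: Skp1a and Cul1, parts of the SCF ubiquitin ligase, averaged 2386 and 348.5 CPM, and Btrc, its IkB-binding F-box protein, 142.9. Within the atypical inhibitors and negative regulators, Tax1bp1 averaged 406.2 CPM, N4bp1 146.5 and the nuclear IkB gene Nfkbiz 129.1. For Nfkbiz, the GFP High minus GFP Low value was 0.12 on the log2 scale with an SE of 0.14 (edgeR, adjusted p = 0.998). Of the coactivators, Ncoa3 averaged 841.4 CPM, Akirin2 642.7 and Crebbp 553.6.

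Known NF-kB target genes other than Nfkbia were also counted. Of 32 targets, 29 were found and 13 to 15 tested. edgeR called 0 in each comparison, where it called 0.0135% of all tested genes in GFP High against RFP, 0.0197% in GFP Low against RFP and 0% between the GFP groups. A count of 0 therefore says little about the targets. Their difference was above 0 for 9 of 15, 9 of 13 and 9 of 14 in that order, beside 49.3%, 48.9% and 49.4% of all tested genes. The medians were 0.11, 0.03 and 0.15 on the log2 scale. The summed target level was 1236 to 1257 CPM in the GFP High libraries, 1234 to 1237 in those of GFP Low and 1113 to 1170 in those of RFP. Birc3, Bcl2l1 (an anti-apoptotic gene, 236.3 CPM on average) and Irf1 (an interferon regulatory factor, 150.1) make up most of that sum. Bcl2l1 was at 235.5 ± 2.75, 238.3 ± 16.3 and 235.3 ± 6.24 CPM for GFP High, GFP Low and RFP, respectively (SD, n = 3 each). The chemokine genes Cxcl1 and Cxcl10 had at most 3 counts in any library.

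Immediate early genes, which respond to handling and stress in many cells, were counted beside Nfkbia, a rapid-response gene itself. Of 20 such genes, 14 to 17 were tested and edgeR called 0 in each comparison. With at most 0.0197% of all tested genes called in any comparison, that count says little about these genes. Their difference was above 0 for 5 of 16 in GFP High against RFP, 3 of 17 in GFP Low against RFP and 6 of 14 between the GFP groups, beside the same 49.3%, 48.9% and 49.4%. Their summed level was 80.8 to 82.5 CPM in the GFP High libraries, 77.6 to 86.5 in those of GFP Low and 83.4 to 95.9 in those of RFP. The phosphatase gene Dusp1 was at 25.2 ± 2.67, 21.7 ± 0.588 and 23.2 ± 2.65 CPM, and the transcription factor gene Egr1 at 17.7 ± 4.00, 21.8 ± 1.65 and 21.6 ± 2.76 CPM, in the same order (SD, n = 3 each).

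The genes whose profile over the 9 libraries was most like that of Nfkbia lay outside the family. Likeness was the root-mean-square difference of log2 CPM after centring each gene, over 8544 protein-coding genes with a mean of at least 5 CPM. The nearest were Sys1 (a Golgi trafficking gene) at 0.225, Sos1 (a Ras exchange factor) at 0.230, Gm10131 at 0.234, Mgmt (a DNA repair gene) at 0.242 and Med11 (a Mediator subunit) at 0.242. The median gene was at 0.535, and a flat profile would be at 0.484. Sys1 was at 10.2 ± 2.21, 4.20 ± 0.508 and 6.14 ± 0.875 CPM for GFP High, GFP Low and RFP, respectively (SD, n = 3 each). The nearest of the relatives was Chuk, at rank 1519 with 0.451, and the farthest ranked was Nfkb2 at 8296, while Nfkb1 was below the level limit. Nfkbib, Rel and Rela, at 0.504, 0.503 and 0.506, were near the value of a flat profile. The ranking rests on the Nfkbia values that chose the set, so nothing about the family is read from it.

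The 3′ ends of the principal GENCODE transcripts were also read, because stored oocyte mRNAs are controlled there. A polyadenylation hexamer (AATAAA or ATTAAA) lay in the last 50 bases of 9 of the 10 genes, all but Nfkbib, against 71.4% of 21808 transcripts. A cytoplasmic polyadenylation element (TTTTAT or TTTTAAT) lay in the last 150 bases of 3 of the 10, Chuk, Nfkb1 and Rel, against 21.3%. None of the 3 inhibitors held this element in that window.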

How the data were processed

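Poly-A RNA from pooled oocytes was reverse transcribed from random primers and read from both fragment ends, per the labels' protocols. The submitters' processing notes name fastp, HISAT2 2.0.5, featureCounts 1.5.0-p3, DESeq2 1.20.0 and the build mm10. The authors deposited 3 tables, 1 per pair of groups, with raw read counts per gene, from which all tests were made. Beside the counts, the authors deposited their normalised signal (not used for values here), their FPKM, and, per comparison, a log2 fold change with its p-value and an adjusted p-value. The tables were joined by gene into 30153 genes, and a count was set to 0 for 178 genes that a table lacked. Library totals were 19381677 to 27746256 counts. edgeR 4.0.16 in R 4.3.3 was fitted to all genes of the 6 libraries of each pair (filterByExpr, TMM scaling, quasi-likelihood test, Benjamini-Hochberg adjustment, threshold 0.05). CPM values use TMM scaling over 9 libraries. DESeq2 1.42.0 and other settings were alternatives. The scripts were tested on simulated data. Gene coordinates are those of the deposited tables, on mm10. Promoter sequences are RefSeq's on GRCm38.p6, and transcript lengths are from GENCODE M21. Named beyond the 10 genes were the 3 genes of each pathway list with the highest mean CPM, any list gene called, and the 5 profiles nearest to Nfkbia. The genes and lists were chosen with earlier results of these data known.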

Additional observations from a re-analysis of the deposited data

How the results depend on the processing

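With 3 libraries a group, the fits across all genes made few calls, and their number moved with the settings. DESeq2's Wald test called 12, 10 and 4 genes in GFP High against RFP, GFP Low against RFP and GFP High against GFP Low, and edgeR without a filter on low counts called 16, 34 and 16, where the edgeR counts given above were 2, 3 and 0. Leaving out each library in turn gave 0 to 2, 2 to 3 and 0 to 1, with 0 in GFP High against RFP when RFP 2, RFP 3, GFP High 1 or GFP High 3 was left out, and 1 between the GFP groups without GFP High 3. Of the 10 genes, 1 was called in GFP High against GFP Low by DESeq2 and 1 without the filter, Nfkbia in both cases. With the replicate number as a block, 4 genes were called in GFP High against RFP, 3 in GFP Low against RFP and 0 between the GFP groups. The block changed no call of the 10 genes, and the numbers do not pair the libraries, with correlations of same-numbered deviations of -0.106 to 0.120. Directions turned only for values near 0 or carried by 1 library. Without the filter, Rel and Rela in GFP High against RFP became -0.0044 and -0.0053 and Rel in GFP High against GFP Low -0.0010 (log2). Rel in GFP Low against RFP became 0.0014 with DESeq2 size factors and 0.00059 with DESeq2, and Ikbkb in GFP High against GFP Low 0.0067 and 0.0071. Leaving out libraries in GFP High against RFP gave Nfkbie -0.030 to 0.18, Rel -0.040 to 0.049, Rela -0.085 to 0.10, Chuk -0.046 to 0.30 and Ikbkb -0.28 to 0.16. In GFP Low against RFP it gave Nfkbie -0.017 to 0.079, Nfkb2 -0.29 to 0.046, Rel -0.085 to 0.13, Chuk -0.14 to 0.072 and Ikbkb -0.048 to 0.027. For GFP High against GFP Low the ranges were Nfkbib -0.16 to 0.21, Nfkbie -0.058 to 0.15, Rel -0.13 to 0.081, Relb -0.29 to 0.54, Chuk -0.00096 to 0.34 and Ikbkb -0.27 to 0.18. The cause was not tested.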

Other observations

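The genes beside Nfkbia on chromosome 12 were looked at after the Nfkbia values had been seen. Of 9 other genes within 500000 bases with at least 5 CPM, 3 are Srp54 copies whose reads may be split between near-identical genes. Their GFP High minus GFP Low values were 0.26 for Srp54a, -0.92 for Srp54b and -0.33 for Srp54c on the log2 scale. The remaining 6 had values of -0.13 to 0.12, where Nfkbia had 1.06. In GFP High against RFP they had -0.11 to 0.66, the highest being 1700047I17Rik2, where Nfkbia had 0.78. Psma6, a proteasome subunit gene, was at 95.3, 87.9 and 83.6 CPM in GFP High, GFP Low and RFP, and Ralgapa1, a Ral GTPase-activating gene, at 20.9, 19.9 and 17.5 CPM.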
